A study of Mus musculus with 8 samples.

Results

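Bone morphogenetic proteins (BMPs) are secreted growth factors that act through receptor kinases and Smad transcription factors, and in cartilage they drive chondrocyte differentiation and growth. Their reach is limited at 2 levels: secreted antagonists bind the ligand outside the cell, and a decoy receptor and an inhibitory Smad damp the signal at and inside the membrane. The Id genes, which encode helix-loop-helix proteins that lack a DNA-binding region and sequester E proteins, are immediate transcriptional targets of BMP signalling in many cells and are often read as a measure of it. The 10 genes described here are the secreted antagonists Nog, Chrd, Chrdl1 and Grem1, the inhibitors Bambi and Smad6, which are themselves BMP-induced, and the targets Id1, Id2, Id3 and Id4. They were taken by name, and every probe set that the platform annotation assigns to 1 of these symbols alone was kept, which gave 17 of the 45101 probe sets on the array, for 10 of 18193 named genes. No probe set was shared between a member and another gene.

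The RNA came from primary rib chondrocytes of FVB mouse embryos at E18.5, late in gestation, freed by collagenase and trypsin. Embryos of 4 litters were sorted by genotype, so that each litter gave 1 array labelled Hoxd4 transgenic and 1 array labelled wild type, called transgenic and control below, 8 arrays in all. Both groups share the strain, age, tissue and digestion, and the comparison asks what differs in chondrocytes that overexpress Hoxd4, a homeobox transcription factor of axial patterning. The labels give neither the promoter that drives the transgene nor the number of embryos in a pool.

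The values are MAS5 signals, probe set intensities on a linear scale, with array medians between 100.5 and 115.1. Fold changes were fitted on log2(signal + 32), where 32 is near the lower quartile of signal, for the 22518 probe sets with a mean signal above 106. All 17 chondrocyte markers examined, among them Col2a1, Acan and Sox9, were in this tested set, and their lowest signal on any array was 1745. The brighter probe set for Hoxd4, which the annotation also assigns to its neighbour Hoxd3, read 94.1, 415, 172 and 13 in the transgenic arrays of litters 1, 2, 3 and 4, against 27.3, 42.6, 4.1 and 256 in the control arrays. It thus ran against the labels in litter 4, and whether it targets sequence in the transgene is not known here. Each direction below rests on the labels, and values without litter 4 are given for the members and for each gene list. Sex-linked transcripts also differed with the label. The brightest probe set of Xist, the X-inactivation transcript, read 79.8, 3266, 47.2 and 8209 in the transgenic arrays, against 5778, 9945, 13760 and 8098 in the control arrays, a log2 fold change of -3.68 (95% interval -6.14 to -1.22). The Y-linked Eif2s3y, Uty and Kdm5d were at 0.92, 0.86 and 0.75, each higher in the transgenic array of all 4 litters. All 4 transcripts had an unadjusted p under 0.05 and an adjusted p of 0.9997 in limma. The sex make-up of the pools thus went in part with the label. Its part in the values of the genes below, X-linked or not, was not tested.

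Promoter sequence is shown for the 4 genes whose signals went together most closely across arrays, as described further on. These are the 250 bases before the annotated start in RefSeq (build GRCm38.p6), read 5′ to 3′ on the strand of the gene. Capitals mark matches to 2 GC-rich motifs that BMP Smads are known to bind, GGCGCC, which reads the same on both strands, and GCCGNCGC, searched on both strands.
Id2, chr12:25096093-25096342, minus strand: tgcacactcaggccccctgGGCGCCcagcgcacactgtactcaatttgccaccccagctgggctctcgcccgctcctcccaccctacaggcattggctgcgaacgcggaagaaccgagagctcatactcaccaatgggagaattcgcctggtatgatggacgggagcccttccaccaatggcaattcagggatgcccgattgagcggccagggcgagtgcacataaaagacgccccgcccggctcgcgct
Smad6, chr9:64022060-64022309, minus strand: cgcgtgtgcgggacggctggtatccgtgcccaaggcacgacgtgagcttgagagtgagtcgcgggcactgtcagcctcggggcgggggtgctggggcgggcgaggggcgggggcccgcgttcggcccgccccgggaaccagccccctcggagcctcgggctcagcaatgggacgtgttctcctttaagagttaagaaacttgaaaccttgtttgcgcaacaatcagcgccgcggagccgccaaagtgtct
Id3, chr4:136143572-136143821, plus strand: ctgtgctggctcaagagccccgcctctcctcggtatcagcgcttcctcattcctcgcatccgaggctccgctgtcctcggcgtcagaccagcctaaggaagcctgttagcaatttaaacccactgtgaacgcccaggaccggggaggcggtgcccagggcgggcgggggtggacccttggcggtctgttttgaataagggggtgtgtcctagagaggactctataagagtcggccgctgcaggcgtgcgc
Id4, chr13:48260866-48261115, plus strand: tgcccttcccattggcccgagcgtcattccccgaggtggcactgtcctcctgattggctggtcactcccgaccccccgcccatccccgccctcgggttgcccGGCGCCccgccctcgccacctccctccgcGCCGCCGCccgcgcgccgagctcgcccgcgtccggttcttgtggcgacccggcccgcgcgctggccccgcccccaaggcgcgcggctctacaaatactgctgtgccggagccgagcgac
GGCGCC stood in the windows of Id2 and Id4 but not in those of Id3 and Smad6, and GCCGNCGC in that of Id4 alone among these 4. The table of promoters held 6 members, adding Grem1 and Chrd, and 4 of these 6 windows held GGCGCC and 3 held GCCGNCGC, with the motifs overlapping in Grem1 and in Chrd. Of all 32851 promoter windows, 9.59% held GGCGCC and 6.89% held GCCGNCGC. The 6 windows had between 62.8% and 78% of G and C, against a median of 52.4% over all windows, and so are richer in the letters of both motifs. A match describes these letters only and says nothing of binding in chondrocytes.

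By brightest probe set, 8 of the 10 genes, all but Chrd and Grem1, had slightly higher signals in arrays labelled transgenic, and none passed the test. Of the 16 tested probe sets, 12 were higher and 4 lower, with a median log2 fold change of 0.11, while over all tested probe sets 51.2% were higher and the median was 0.003. Without litter 4, 13 of the 16 were higher. In limma, 0 of 16 passed an adjusted p of 0.05 (every adjusted p was 0.9997), and the background share over all tested probe sets was 0.0%. At an unadjusted p under 0.05 the count was 2 of 16, or 12.5% (Id4 and Bambi), against 3.29% of all tested probe sets. With the litter as a block it was 4 of 16, or 25%, against 5.54%. Without litter 4 and with no block it was 2 of 16 against 2.45%. The unadjusted limma p of Id4 and Bambi lay near the threshold and moved across it with the setting. It was 0.064 and 0.062 with median scaling, 0.091 and 0.087 without the intensity trend, and 0.044 and 0.063 with quantile normalization. All 16 intervals of 95% lay within a 1.5-fold change in either direction. The groups overlapped in all 16, while they did not overlap in 2.27% of all tested probe sets. The arrays hold RNA of whole pools, so fewer cells of a type and less RNA per cell cannot be told apart. The plot of signals by array shows each value, and the plot of fitted differences gives every tested probe set with its interval.

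**Figure D1:**
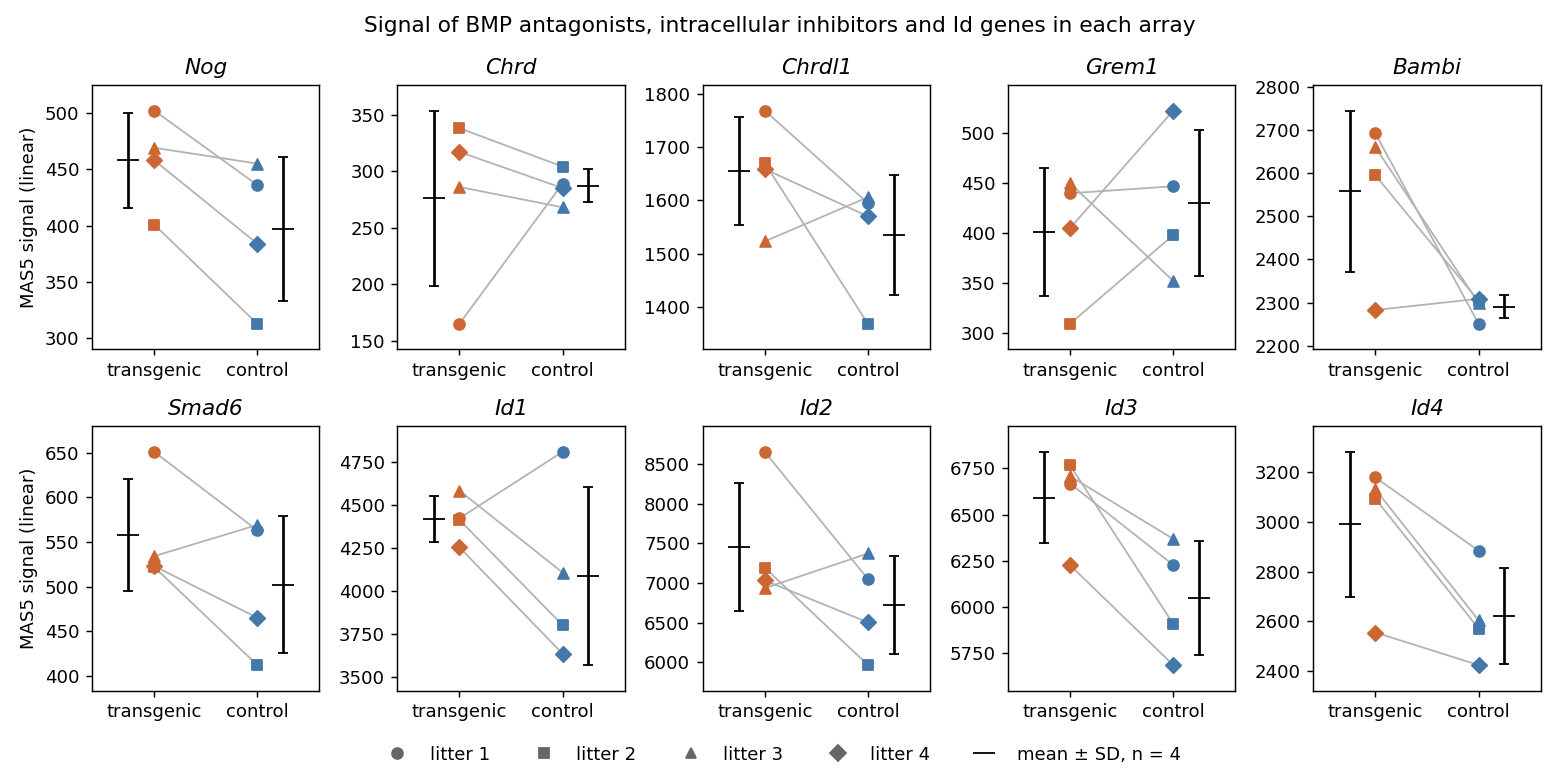
MAS5 signal (linear, vertical axis, each gene with its own range that does not start at 0) of the brightest probe set of each gene in the 4 transgenic and 4 control arrays, with a line joining the arrays of a litter and the mean ± SD beside each group. Nog, Id3 and Id4 were higher in the transgenic array of all 4 litters, while Grem1 was lower in 3 of 4.

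**Figure D2:**
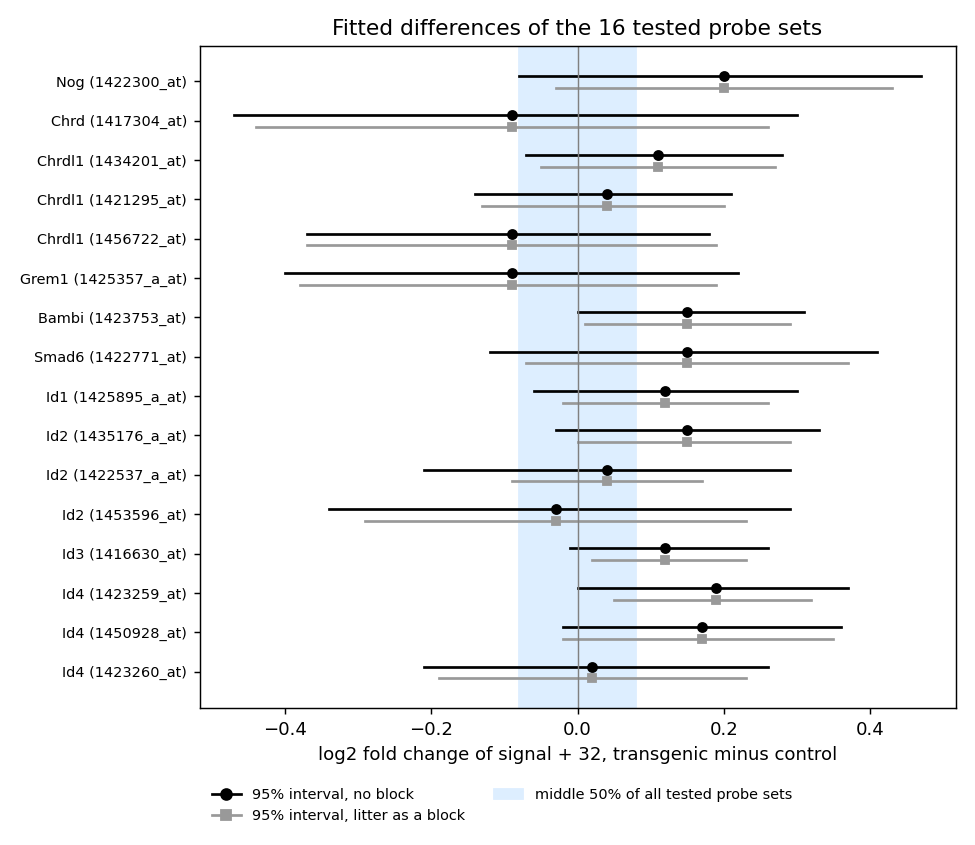
Fitted log2 fold change of signal + 32, transgenic minus control, with 95% intervals for the 16 tested probe sets, without a block (black) and with the litter as a block (grey), over the middle 50% of all tested probe sets (band, -0.08 to 0.08). The estimates lay between -0.09 and 0.20, and no interval reached beyond 0.47 to either side.

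Of the secreted antagonists, Nog, which encodes noggin, a protein that wraps BMP dimers and hides their receptor-binding surfaces, had signals of 502, 401, 469 and 458 in the transgenic arrays of litters 1, 2, 3 and 4, against 436, 313, 455 and 384 in the control arrays. In each of the 4 litters the transgenic array was the higher one, and 3 of 4 transgenic arrays lay above the highest control, with that of litter 2 inside the control range. The mean signal was 458 ± 42.1 in transgenic and 397 ± 63.5 in control arrays (SD, n = 4 each). This is a log2 fold change of 0.20 (95% interval -0.08 to 0.47, limma adjusted p = 0.9997), with 0.19 without litter 4 and 0.10 without the control array of litter 2.

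Chrd encodes chordin, a large antagonist that is cleaved by tolloid proteases. Its signals were 165, 338, 286 and 317 in the transgenic arrays, against 289, 304, 268 and 285 in the control arrays. The transgenic array of litter 1 was the lowest of all 8, and the other transgenic arrays were each above the control of their litter. The fitted change was -0.09 on the log2 scale (95% interval -0.47 to 0.30) and turned to 0.12 without that array. Without litter 4 it was -0.16. Its residual SD of 0.297 on the log2 scale was the widest of the members, higher than or equal to that of 85.2% of all tested probe sets, which were not matched for signal.

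Chrdl1 encodes a chordin-like antagonist and lies on the X chromosome. From its brightest probe set the signals were 1769, 1670, 1523 and 1659 in the transgenic arrays, against 1595, 1368, 1606 and 1570 in the control arrays. It was higher in 3 of 4 litters and lower in litter 3, and the log2 fold change was 0.11 (95% interval -0.07 to 0.28), with 0.12 without litter 4 and 0.05 without the control array of litter 2. Its other tested probe sets were at 0.04 and -0.09, and the mean of the 3 was at 0.02, so the probe sets of this gene disagree in direction. The fourth, too dim for the fit, had signals of 60.3 to 130 in transgenic and 62.5 to 106 in control arrays (log2 difference 0.09, exact two-sided permutation p = 0.69, smallest possible 0.0286). Xist, also X-linked, differed between the same groups by the signals given above, and its part in the Chrdl1 values was not tested.

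Grem1 encodes gremlin, an antagonist of the DAN family best known from the limb bud. Its signals were 440, 309, 450 and 405 in the transgenic arrays, against 447, 398, 352 and 523 in the control arrays. The groups overlapped widely, with the transgenic array lower in 3 litters and higher in litter 3. On the log2 scale the fold change was -0.09 (95% interval -0.40 to 0.22), with 0.02 without the transgenic array of litter 2 and -0.01 without litter 4. The sign of the fold change of Grem1, like that of Chrd, thus depended on 1 array.

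Bambi encodes a receptor-like membrane protein without a kinase domain that blocks TGF-beta family receptors. It had signals of 2692, 2595, 2660 and 2283 in the transgenic arrays of litters 1, 2, 3 and 4, against 2251, 2304, 2299 and 2309 in the control arrays. The controls were nearly level, and the transgenic arrays of litters 1, 2 and 3 stood above all of them, while that of litter 4 lay among them. The mean was 2558 ± 187 in transgenic and 2291 ± 26.5 in control arrays (SD, n = 4 each). This gave a log2 fold change of 0.15 (95% interval 0.00 to 0.31, unadjusted p = 0.049 and adjusted p = 0.9997 in limma), and 0.21 without litter 4.

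Smad6 encodes an inhibitory Smad that competes with BMP-activated Smads. Its signals were 651, 522, 534 and 523 in the transgenic arrays, against 563, 412, 569 and 465 in the control arrays. It was higher in 3 litters and lower in litter 3, and 1 transgenic array, that of litter 1, exceeded the highest control. Its log2 fold change was 0.15 (95% interval -0.12 to 0.41; 0.14 without litter 4), against 0.06 without the control array of litter 2.

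Id4 had the smallest p of the 10 genes. From its brightest probe set the signals were 3179, 3093, 3131 and 2555 in the transgenic arrays of litters 1, 2, 3 and 4, against 2884, 2571, 2604 and 2424 in the control arrays. Litter by litter the transgenic array was higher 4 of 4 times, with 3 of 4 transgenic arrays above the highest control and the transgenic array of litter 4 within the control range. The mean was 2990 ± 292 in transgenic and 2621 ± 192 in control arrays (SD, n = 4 each). The log2 fold change was 0.19 (95% interval 0.00 to 0.37, unadjusted p = 0.046 and adjusted p = 0.9997 in limma), with an interval of 0.05 to 0.32 and an adjusted p of 0.84 with the litter as a block. Without litter 4 it was 0.22. Its other probe sets were at 0.17 and 0.02, and the mean of the 3 was at 0.12.

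Id3 was the steadiest gene of the set. Its signals were 6668, 6767, 6708 and 6226 in the transgenic arrays, against 6227, 5908, 6368 and 5685 in the control arrays. The transgenic array was higher in every litter, and 3 of 4 lay above the highest control. The mean was 6592 ± 248 in transgenic and 6047 ± 309 in control arrays (SD, n = 4 each). The log2 fold change was 0.12 (95% interval -0.01 to 0.26; with the litter as a block 0.02 to 0.23, adjusted p = 0.87), and 0.12 without litter 4. The residual SD was 0.0649 on the log2 scale, and 3.94% of tested probe sets had an equal or smaller one, against a median of 0.175. These probe sets span all signal levels, dim ones are noisier, and no comparison was made with probe sets as bright as that of Id3.

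Id1, the target most often used to read BMP signalling, had signals of 4423, 4414, 4584 and 4254 in the transgenic arrays, against 4810, 3801, 4107 and 3635 in the control arrays. The transgenic arrays lay close together, and all of them fell within the range of the controls, whose highest value was that of litter 1. SDs of the signal were 135 in transgenic and 519 in control arrays (n = 4 each), a difference in spread that was not tested. The fit put Id1 at 0.12 on the log2 scale (95% interval -0.06 to 0.30), with 0.08 without litter 4, 0.20 without the control array of litter 1 and 0.07 without that of litter 4.

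Id2, which is also induced by signals other than BMP, read 8657, 7194, 6935 and 7032 in the transgenic arrays with its brightest probe set, against 7050, 5964, 7373 and 6503 in the control arrays. The transgenic array was higher in 3 litters and lower in litter 3, and that of litter 1 stood above all others. The log2 fold change was 0.15 (95% interval -0.03 to 0.33; 0.16 without litter 4), and 0.07 without the transgenic array of litter 1. The other tested probe sets were at 0.04 and -0.03, and the mean of the 3 was at 0.05.

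In the litter view, the transgenic array was higher in all 4 litters for 3 of 16 tested probe sets (18.8%; Nog, Id3 and Id4), where 6.83% of all tested probe sets were. No member was lower in all 4 litters, a pattern that 6.6% of all tested probe sets showed. In litter 2, 9 of the 10 genes were higher in the transgenic array, with Grem1 as the exception, while 7 were in litter 1, 7 in litter 3 and 8 in litter 4. The widest difference within a litter was that of Chrd in litter 1, at -0.71 on the log2 scale.

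**Figure D3:**
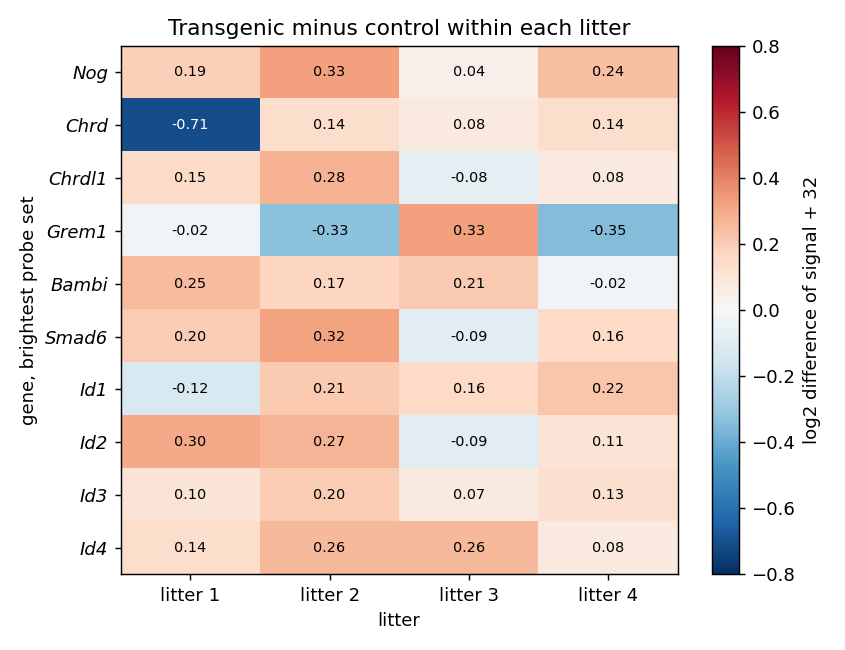
Difference of log2(signal + 32) between the transgenic and the control array of each litter (columns) for the brightest probe set of each gene (rows), with red for higher in the transgenic array. Values ranged from -0.71 (Chrd, litter 1) to 0.33 (Nog in litter 2 and Grem1 in litter 3).

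To ask whether BMP-induced genes varied together between pools, signals of Id1, Id2, Id3, Id4, Smad6 and Bambi were correlated across the 8 arrays, in 15 pairs. Each pair had an exact permutation test, with Benjamini-Hochberg adjustment over the pairs. Each gene was read by its brightest probe set, and the pairs were not tested with the dimmer probe sets of Id2 and Id4. Arrays of a litter are related, so the 8 are not fully independent. All 15 coefficients were positive, from 0.39 to 0.96, as were all 15 for deviations from the group means and all 15 for deviations from the litter means. With 2 arrays a litter, deviations from litter means are mirror images, so they hold only 4 litter differences and keep the difference between labels. Each of these genes had a fold change above 0, so positive signs are partly built in there. Other subsets of the arrays did not keep every sign. Without the 2 arrays farthest from the median of the first gene of a pair, 13 of 15 were positive, with Id1 and Id2 at -0.18 and Smad6 and Bambi at -0.07. Within the 4 transgenic arrays 14 of 15 were positive, the exception being Id1 and Id2, against 10 of 15 within the 4 control arrays, where all 5 pairs with Bambi were negative. Groups of 4 are too small for a coefficient to be read, so only these signs are given. The closest pair was Id2 and Smad6, with a Pearson r of 0.96 (n = 8, exact permutation p = 0.0011, adjusted p = 0.016) and a Spearman rho of 0.83 (exact permutation p = 0.015, adjusted p = 0.12). Without the 2 arrays farthest from the median of Id2 the r was 0.86, and it was 0.95 for deviations from the group means and 0.96 for deviations from the litter means. By these brightest probe sets, both genes were highest in the transgenic array of litter 1 and lowest in the control array of litter 2. The dimmer Id2 probe sets did not share this. One was highest in the control array of litter 1 (4721) and lowest in that of litter 4 (3196). The other was lowest in the transgenic array of litter 1 (256). The closeness to Smad6 is thus shown for 1 probe set of Id2 only. Of the 22516 other tested probe sets, 0 had an r with Id2 at least as high as that of Smad6, and the median r with Id2 over all of them was -0.03. The dimmer tested probe sets of Id2 are among these 22516. Read from Smad6, 3 (0.0133%) had an r at least as high as that of Id2. The pair was picked as the closest of the 15 in these same arrays, so its rank is a description and not a further test.

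Id3 and Id4 followed, with a Pearson r of 0.88 (n = 8, exact permutation p = 0.0043, adjusted p = 0.033) and a Spearman rho of 0.86 (exact permutation p = 0.011, adjusted p = 0.12). Without the 2 arrays farthest from the median of Id3 the r was 0.82. It was 0.79 for deviations from the group means, where permutation over all 8 arrays gave an adjusted p of 0.14. That p is approximate, since values centred by group are not freely exchangeable between groups. Of the other tested probe sets, 35 (0.155%) had an r with Id3 at least as high as that of Id4, a rank that again describes a pair picked by its r. Id1 had an r of 0.76 with Id3 and of 0.78 with Id4 (n = 8, exact permutation adjusted p = 0.093 and 0.089), and the r of Id1 and Id3 was 0.06 without the control arrays of litters 2 and 4, so it rests on them. The calls of both closest pairs depended on scaling: after quantile normalization their r was 0.88 and 0.79 and the adjusted p 0.088 for each, and with arrays scaled to 1 median 13 of 15 pairs were called. Over the 6 arrays without litter 4, r was 0.95 and 0.85 (exact permutation adjusted p = 0.23 for each). By Spearman's rho, 0 of 15 pairs passed the adjusted threshold and 3 had an unadjusted p under 0.05.

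**Figure D4:**
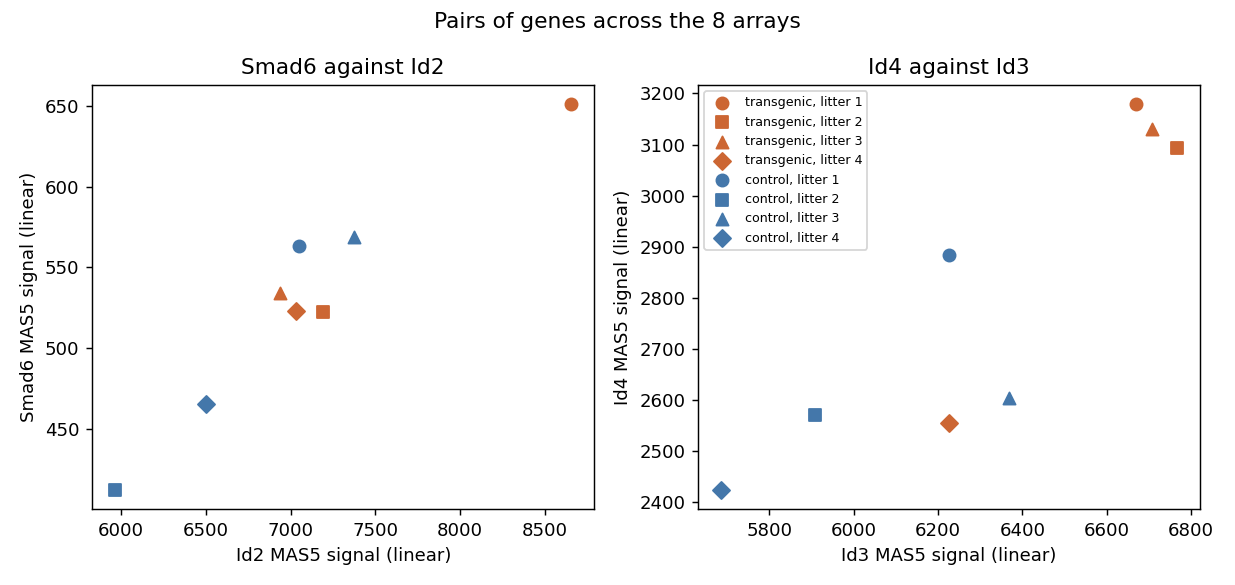
MAS5 signals (linear axes that do not start at 0) of Smad6 against Id2 and of Id4 against Id3 in the 8 arrays, by brightest probe set. Colour gives the label and marker the litter. Smad6 and Id2 were both highest in the transgenic array of litter 1 (651 and 8657), and Id3 and Id4 were both high in the transgenic arrays of litters 1, 2 and 3.

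The genes outside the Id family whose signals were most like those of Id1 over the 8 arrays, among 19696 tested probe sets with a single symbol, were Slc25a29 (r = 0.959), Med13l (0.946) and Rps3 (0.942). For Id3 they were Foxc1, a forkhead transcription factor of mesenchyme (0.97), Psmd9 (0.954) and Mppe1 (0.951). With this many probe sets and 8 arrays, coefficients of this size describe likeness in these arrays only, and they carry no test. Foxc1 had a mean signal of 921 in transgenic and 819 in control arrays.

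The rest of the BMP pathway was described through 5 lists, none of whose genes passed the adjusted threshold in limma (0 of 60 tested entries, with 3 at an unadjusted p under 0.05: Skil, Bmp2 and Myf5), read against the share of 51.2% of all tested probe sets that were higher and their median of 0.003. Of the receptors, Smads and their regulators, 18 of 19 tested genes were higher and 1 lower, with a median log2 fold change of 0.07 (15 of 19 and 0.07 without litter 4), and 1 had an unadjusted p under 0.05. This count holds for the brightest probe set of each gene: of the 15 genes with several tested probe sets, 11 had one below 0, such as Smad7 (-0.43) and Tob2 (-0.32). With the mean of all tested probe sets of a gene, an alternative chosen after seeing the data, 12 of 19 were higher and the median was 0.04. The summed signal of the brightest probe sets was 31598 to 32885 in transgenic and 29393 to 31374 in control arrays. This sum is weighted to the genes with the highest signals, such as Smad4, and has no background share beside it. Skil, which encodes a corepressor of Smads, was at 0.17 (95% interval 0.00 to 0.34), Acvrl1, a type I receptor of vessel lining, at 0.28 (95% interval -0.04 to 0.59), and Tob1, an antiproliferative protein that binds Smads, at 0.15 (95% interval -0.02 to 0.31). A second probe set of Skil was at -0.08 and one of Acvrl1 at -0.11, against the direction of the first.

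Of 7 tested ligands 3 were higher and 4 lower, with a median of -0.01 (3 of 7 higher without litter 4). Bmp2, a ligand of growth plate cartilage, had a mean signal of 1903 in transgenic and 1618 in control arrays (n = 4 each; log2 fold change 0.23, 95% interval 0.02 to 0.43, limma adjusted p = 0.9997). Gdf5, a ligand of joints and growth plates, was at 0.25 (95% interval -0.12 to 0.62) and higher in 4 of 4 litters, and Bmp6 was at 0.09. The other extracellular antagonists and modulators gave 11 higher and 4 lower of 15, with a median of 0.03 (10 of 15 higher and 0.01 without litter 4). Among them Bmp1, a tolloid protease that cleaves chordin, was at 0.19 (95% interval -0.02 to 0.40), Fstl3, a follistatin-like protein, at -0.21 and Sostdc1, an antagonist also known as Wise, at -0.12, with another probe set of Sostdc1 at 0.31.

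Other BMP-induced transcription factors gave 4 higher and 5 lower of 9, with a median of -0.05 (6 of 9 higher and 0.0 without litter 4). Tbx3 was at -0.15, Hes1 at 0.12 and Sp7, the osterix gene, at -0.08, none with an unadjusted p under 0.05. Of the E proteins and other helix-loop-helix factors, which include the partners that Id proteins sequester, 8 of 10 tested were higher, with a median of 0.06 (9 of 10 and 0.09 without litter 4). Myf5, a muscle-determining factor, was at 0.43 (95% interval 0.07 to 0.79, limma adjusted p = 0.9997), Twist1 at -0.23 (95% interval -0.50 to 0.04, lower in 4 of 4 litters) and Tcf4 at 0.08.

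**Figure D5:**
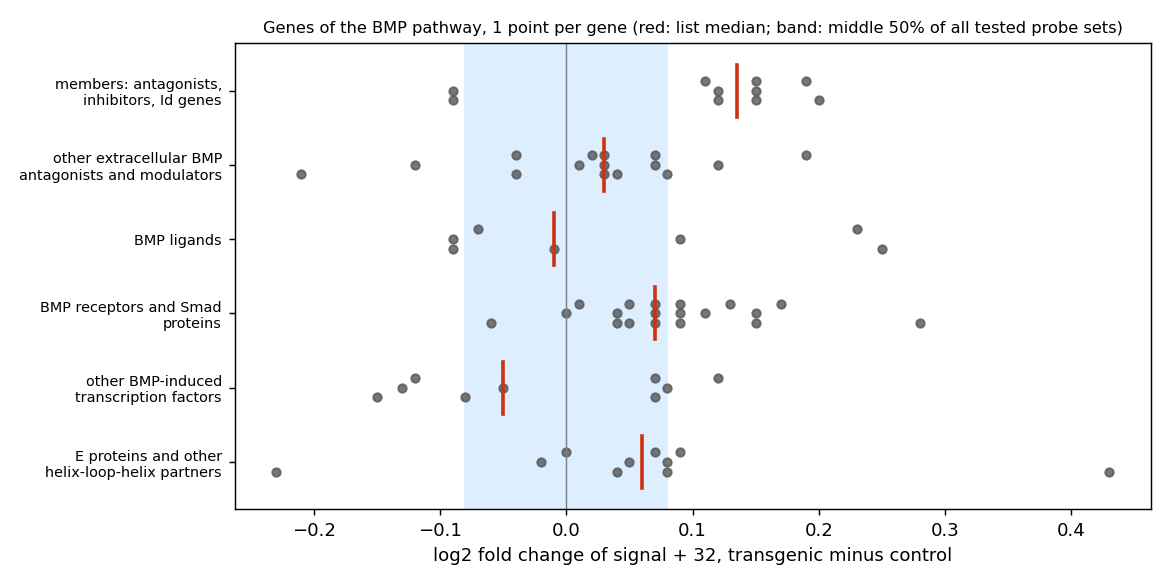
Log2 fold change of signal + 32, transgenic minus control, of each gene (points, brightest tested probe set) in the set of 10 and in the 5 other BMP pathway lists, with list medians (red) over the middle 50% of all tested probe sets (band). By its brightest probe sets the receptor and Smad list had 18 of 19 genes above 0, against 12 of 19 by the mean of each gene's probe sets, while ligands and other BMP-induced transcription factors were spread to both sides.

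Several members are also expressed by other cells of a rib digest, and markers of these were read in the same arrays. Of the endothelial markers, whose cells are known to express Id1, Id3 and Smad6, 10 of 14 tested were lower in transgenic arrays, with a median of -0.22 and a summed signal of 2988 to 4211 in transgenic and 3817 to 4736 in control arrays. Immediate early genes, which dissociation can induce, were higher in 17 of 20, with a median of 0.09 and a summed signal of 130636 to 166704 in transgenic and 133214 to 153297 in control arrays. Erythroid markers were lower in 3 of 3, with sums of 5349 to 10672 in transgenic and 6397 to 13726 in control arrays. Osteoblast markers were lower in 3 of 5, with sums of 1991 to 2400 in transgenic and 2137 to 2727 in control arrays. Within litters, the erythroid and the osteoblast sums were each higher in the transgenic array in 0 of 4. The endothelial sum was higher in 1 of 4 litters and that of immediate early genes in 3 of 4. Sex-linked transcripts were higher in 3 of 4, with Xist the exception and a median of 0.81 (3 of 4 and 0.99 without litter 4). The chondrocyte markers were higher in 12 of 17 (median 0.05), skeletal muscle in 8 of 12 (0.02), fibroblasts and perichondrium in 7 of 10 (0.04), tendon in 4 of 4 (0.06), smooth muscle and pericytes in 4 of 7 (0.02) and macrophages in 3 of 6 (0.05). Without litter 4 these were 7 of 17 for chondrocytes (-0.01), 5 of 12 for skeletal muscle (-0.07), 5 of 10 for fibroblasts and perichondrium, 2 of 4 for tendon (0.04), 2 of 7 for smooth muscle and pericytes (-0.03) and 3 of 6 for macrophages (-0.01), so several of these counts rest on that litter. The 2 lists named first kept their direction without it, with 2 of 14 endothelial markers higher (median -0.21) and 18 of 20 immediate early genes higher (0.15), while 0 of 3 erythroid markers and 3 of 5 osteoblast markers were higher. Only markers with a mean signal above the filter were counted, such as 6 of 10 macrophage and 3 of 5 erythroid markers on the array. No tested marker was at 0 on any array, which follows in part from that filter. The part of these cells and of dissociation in the values of the Id and antagonist genes was not tested.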

How the data were processed

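Each of the 8 RNA pools went on its own biotin-labelled Affymetrix array of the one-colour kind. What the authors deposited are linear intensities, 1 per probe set, and the submitters' processing notes name MAS5 for them; its version and the scanner settings were not given in the sources used here. With 2% trimmed at each end, the mean signal of every array was 500. MAS5 subtracts mismatch signal, which leaves dim probe sets noisy, and the added constant shrinks their fold changes.

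After 64 control probe sets were left out, log2(signal + 32) of 22518 of 45037 probe sets with a mean signal above the median was fitted with lmFit and eBayes (intensity trend) in limma 3.58.1 (R 4.3.3), with 1 coefficient for genotype and Benjamini-Hochberg adjustment over all of them. The 1 dim member probe set was tested by exact permutation over all 70 label assignments. The fits and correlations were also run on simulated data with independent arrays and no litter effect, so those runs say nothing of paired pools. The number of arrays, 4 per group, limits the precision.

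Of the probe sets, 34945 had 1 symbol in the platform annotation, 932 several and 9160 were unnamed here. The brightest probe set stands for a gene. The members and the gene lists were chosen with earlier results of these data known, and the lists get counts and medians but no test. Named were all members, the 3 genes of each pathway list with the smallest p, and the 3 genes most like Id1 and Id3. The series' design text names 4 litters, each divided by genotype, and the descriptions of same-numbered samples share a mouse number, so these arrays are taken as pairs from a litter. Their deviations from group means correlated at 0.277, 0.169, 0.041 and 0.138, with a mean of 0.156 against -0.052 between litters. The chosen fit had no block, and the blocked fit, other constants, filters and scalings, a fit without trend, and leaving out arrays or litters were alternatives. Protein sequences are not used here.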

Additional observations from a re-analysis of the deposited data

Results flagged for a closer look

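In 4 of 34 groups of 4 arrays (17 probe sets, each in both groups), the array at one end lay farther from the others than Dixon's 95% critical value for 4 samples allows, where chance gives about 1 in 20 groups. Smad6 in the transgenic array of litter 1 had a signal of 651, with the other transgenic arrays at 522 to 534. The brightest Id2 probe set in the same array had a signal of 8657, with the others at 6935 to 7194. The brightest Id4 probe set was lowest in the transgenic array of litter 4, at 2555, with the others at 3093 to 3179. The brightest Chrdl1 probe set was lowest in the control array of litter 2, at 1368, with the others at 1570 to 1606.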

How the results depend on the processing

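Over the 24 alternatives, 0 member probe sets passed the adjusted threshold, with a lowest adjusted p of 0.839, reached with the litter as a replicate block. Over all probe sets the block also gave 0 calls, so the pairing changed no call. Leaving out arrays gave 0 to 2 calls over all probe sets, with 1 without the transgenic array of litter 4 and 2 without both arrays of litter 4, none of them a member. Pairs with a called correlation numbered 2, against 0 with quantile normalization and 13 with median scaling. With deviations from group means 1 was called, by a permutation that is only approximate there. Without litter 4, an alternative chosen after seeing the data, 0 were called. The cause of these differences was not tested.

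The brightest probe sets of Nog, Bambi, Smad6, Id1, Id2, Id3, Id4 and Chrdl1 kept their direction in every alternative run. Others turned when arrays were left out: Chrd ranged from -0.19 to 0.12, Grem1 from -0.23 to 0.02, the dimmer Id2 probe sets from -0.04 to 0.15 and from -0.11 to 0.09, the dimmest Id4 probe set from -0.06 to 0.11, and the lesser Chrdl1 probe sets from -0.001 to 0.10, from -0.25 to 0.04 and, for the dim one, from -0.11 to 0.32. The dimmest Id2 probe set was at 0.002 with median scaling. Chrd had the widest interval of the members, -0.47 to 0.30, with 1 transgenic array at 165 and the others at 286 to 338.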
